A study of Mus musculus with 35 samples.

Results

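The 9 genes described here encode cytokines of the IL-6, IL-12 and IL-10 families. Il6, Lif and Osm encode IL-6 family ligands, Il12a, Il12b, Il23a, Il27 and Ebi3 encode the subunits of the IL-12 family, and Il10 encodes IL-10. They were chosen by symbol, as the 9 of 47069 Ensembl gene identifiers in the deposited expression files that carry these names, 1 identifier for each gene. The rule names no expression value, but the family was chosen with earlier results of these data known. Fragment counts below are per library, and FPKM stands for fragments scaled by gene length in kilobases and by library size, a per-length scale on which levels can be compared between genes.

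The libraries were made from bone marrow-derived macrophages (BMDMs) of C57BL/6 mice, grown with L929-conditioned medium, a source of macrophage colony-stimulating factor. Wild-type cells and cells labelled AMPKa1-/- were treated for 24 h with vehicle (DMSO), with 100 nM dexamethasone (Dex, a synthetic glucocorticoid), with 100 ng/ml lipopolysaccharide (LPS, a bacterial ligand of TLR4), with LPS + Dex, with 1 µg/ml damage-associated molecular patterns (DAMPs), or with DAMPs + Dex. Each of the 12 groups had 3 libraries except the wild-type LPS group, represented by its replicates 2 and 3 (replicate 1 was not analysed here), giving 17 wild-type libraries and 18 labelled AMPKa1-/-. The labels do not say which DAMPs were given, how the AMPKa1 allele was made or what a replicate number marks. The study's methods speak of cultures from individual mice, but no label ties a library to an animal, so p-values measure the spread between these libraries. Library totals, estimated from the steps of the FPKM values, were 15837203 to 31955298 fragments.

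IL-6 family ligands share the signal-transducing receptor chain gp130 (encoded by Il6st) and activate STAT3. The IL-12 family is built from pairs of subunits: IL-12 is Il12a with Il12b, IL-23 is Il23a with the same Il12b, and IL-27 is Il27 with Ebi3. Activated macrophages are a main source of IL-12, which drives interferon-gamma production by T and NK cells, and of IL-6, a mediator of the acute-phase response. IL-10 restrains inflammatory gene expression in macrophages through STAT3, and glucocorticoids are known to repress many cytokine genes that NF-kB and AP-1 activate.

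The checks of Dex and LPS followed the labels, while those made here did not separate DAMPs from vehicle in both genotypes, nor one genotype from the other. Tsc22d3, a gene directly activated by the glucocorticoid receptor, was at 54.3, 51.7 and 54.6 FPKM in wild-type vehicle and at 724, 667 and 736 FPKM in wild-type Dex. Il1b, an LPS-induced cytokine gene, was at 3.77, 5.67 and 5.45 FPKM in wild-type vehicle, at 13932 and 16653 FPKM with LPS, and at 6.38, 2.04 and 10.01 FPKM with DAMPs. None of the 4 stimulus genes checked, Tnf, Il1b, Nos2 and Cxcl10, was called with DAMPs against vehicle in either genotype (limma), and 1 of them, Cxcl10 in cells labelled AMPKa1-/-, had an unadjusted p under 0.05. Saa3, an acute-phase gene, was higher with DAMPs in cells labelled AMPKa1-/- (log2 fold change 2.66 ± 0.56, adjusted p = 0.0071), and was not called in wild-type cells (1.73 ± 0.56, adjusted p = 0.17). Prkaa1, which encodes AMPKa1, was at 15.9, 11.8 and 15.3 FPKM in wild-type vehicle and at 14.8, 16.5 and 15.4 FPKM in the vehicle libraries labelled AMPKa1-/-. The level of Prkaa1 therefore did not separate the genotypes, and whether these reads lie outside a deleted part cannot be told from values per gene. For this reason the genotype is given below as the libraries labelled AMPKa1-/-.

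All libraries had the macrophage markers Adgre1 (474 to 2751 FPKM), Csf1r (197 to 684 FPKM) and Lyz2 (10344 to 35906 FPKM). Of 7 macrophage markers listed, 4 were lower and 2 higher with LPS against vehicle in each genotype. Of all genes, 29.6% and 37.8% were lower and 17.6% and 17.5% higher. With LPS + Dex against LPS 3 were higher and 1 lower in each genotype. The 7 summed to 13978 to 17230 FPKM in wild-type LPS against 20960 to 26807 FPKM with vehicle. Labelled AMPKa1-/-, they summed to 12948 to 22884 FPKM against 21744 to 32440 FPKM. Their part in the results was not tested. Of the markers listed for other cells, Cd209a was at 0 in all 35 libraries, and Ly6g, Cd3e, Cd3g, Ncr1, Ms4a1 and Mcpt8 reached at most 0.200, 0.0772, 0.128, 0.0368, 0.0489 and 0.147 FPKM. Others on these lists were higher, with Ccr7 reaching 109.9 FPKM, S100a8 1147 FPKM, Cd4 34.95 FPKM and Col1a2, a fibroblast collagen gene, 11.9 FPKM, and they are given by group after the results. Saa3 took 16.0% to 24.0% of the FPKM sum in wild-type LPS + Dex libraries and 16.5% to 21.5% in those labelled AMPKa1-/-. With LPS its share was 7.12% and 7.20% in wild-type cells and 3.74% to 7.58% in those labelled AMPKa1-/-. Over the 15686 genes tested, the median log2 fold change was −0.18 for LPS against vehicle in wild-type cells and −0.35 in those labelled AMPKa1-/-, and the changes below stand against these shifts.

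Of the 9 genes, 4 carried an appreciable transcript level in vehicle-treated BMDMs and 5 were at the limit of detection. Ebi3 was at 23.6, 36.2 and 16.9 FPKM in wild-type vehicle, Il10 at 2.53, 6.81 and 3.90 FPKM, Osm at 4.39, 3.87 and 2.73 FPKM, and Il27 at 1.86, 2.04 and 1.72 FPKM. Il6 (1, 2 and 4 fragments), Il12a (0, 1 and 1), Il12b (0, 5 and 1), Il23a (0, 0 and 1) and Lif (6, 0 and 4) were counted in single fragments. These 5 genes had a mean below 0.1 FPKM over the libraries without LPS, and Il23a and Lif passed the filter on low values only through the LPS groups. The plot of FPKM in each library shows these levels by treatment and genotype.

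**Figure D1:**
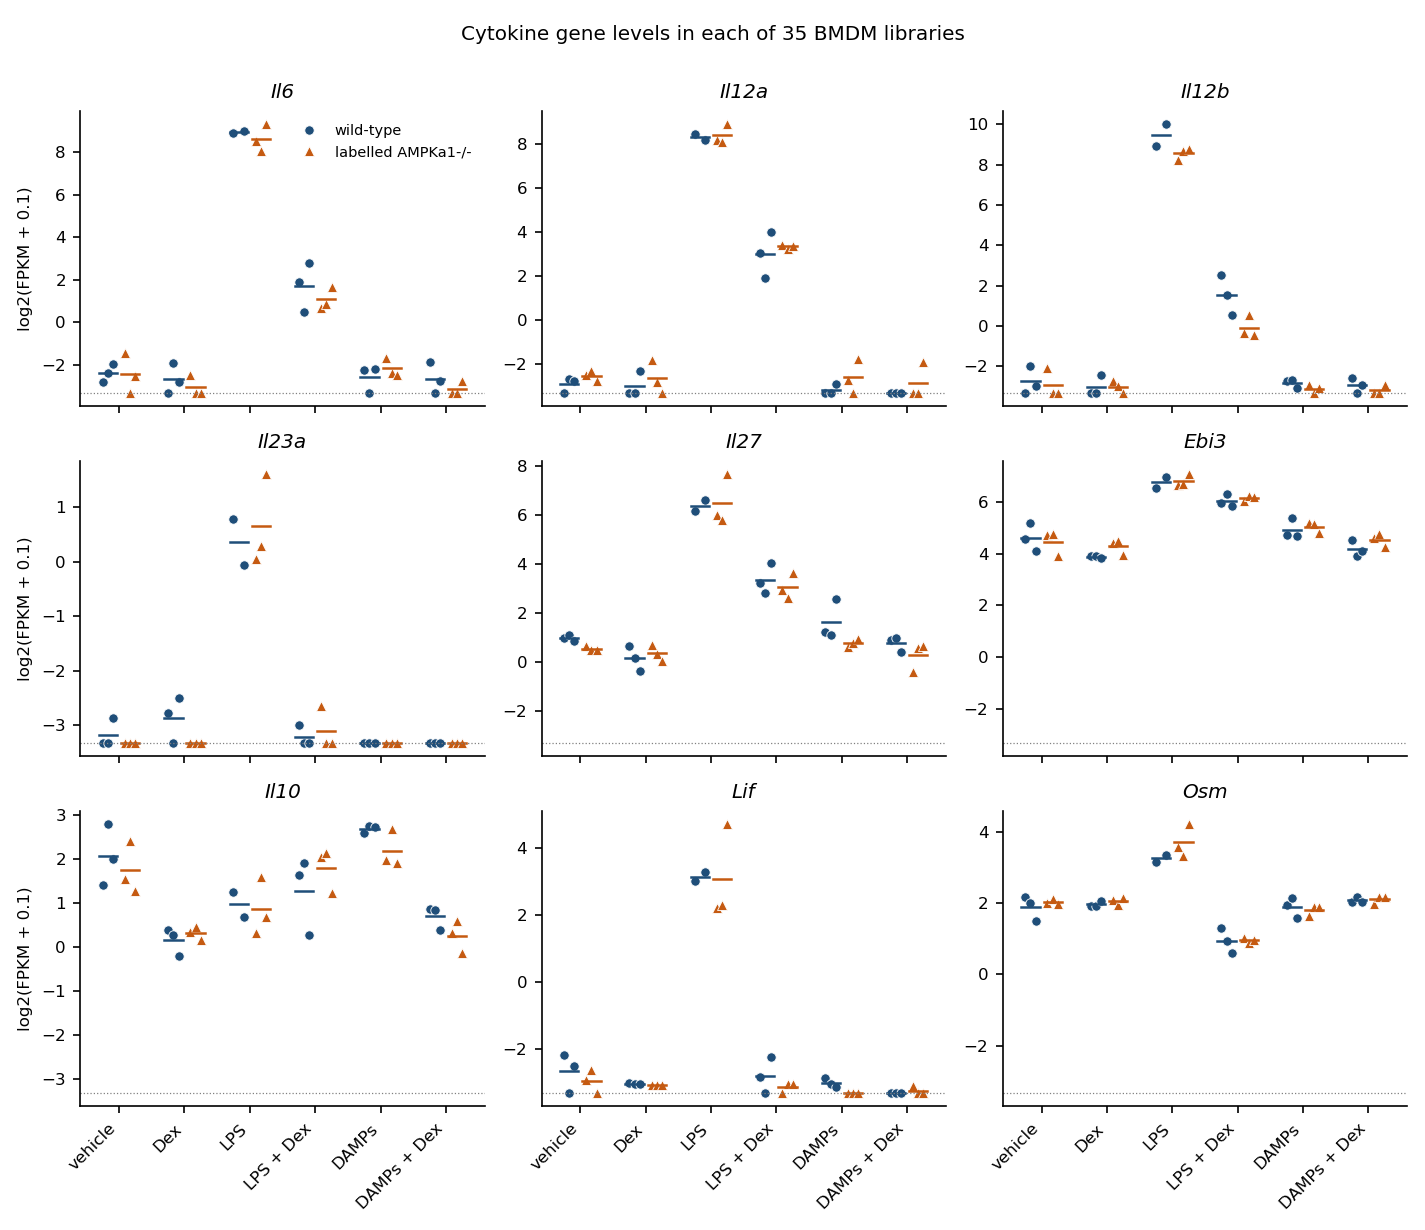
Each panel shows 1 cytokine gene, with log2(FPKM + 0.1) on the vertical axis and the 6 treatments on the horizontal axis. Circles are wild-type libraries, triangles are libraries labelled AMPKa1-/-, short lines are group means (n = 3, wild-type LPS n = 2), and the dotted line marks 0 FPKM. LPS libraries stand highest for every gene except Il10, whose group means are lowest with Dex and with DAMPs + Dex.

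LPS raised 8 of the 9 genes in both genotypes, and Il10 was the exception. In wild-type cells all 9 genes were called, 8 higher and Il10 lower, against a background of 47.3% of all genes (17.6% up and 29.6% down). In the libraries labelled AMPKa1-/- 8 were called, all higher, against a background of 55.2% (17.5% up and 37.8% down). Calls are adjusted p-values below 0.05 (limma on log2(FPKM + 0.1), Benjamini-Hochberg over all genes tested), and errors of log2 fold changes are standard errors (SE). Il23a and Lif, which passed the filter only through the LPS libraries, had to differ, here and in the other comparisons with LPS, so their calls are counted but carry no support. The median log2 fold change of the 9 genes was 5.40 in wild-type cells and 5.94 in those labelled AMPKa1-/-. In these bulk libraries, fewer cells making a transcript and less transcript per cell cannot be told apart.

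Among the IL-6 family ligands, Il6 (ENSMUSG00000025746, chromosome 5, 30013114 to 30019981, GRCm38) rose from a few fragments to 13268 and 15914 fragments in the wild-type LPS libraries, that is to 489 and 524 FPKM. Labelled AMPKa1-/-, Il6 was at 0.268, 0 and 0.0745 FPKM with vehicle and at 369, 269 and 647 FPKM with LPS. The log2 fold change of Il6 was 11.36 ± 0.58 in wild-type cells and 11.07 ± 0.52 in those labelled AMPKa1-/- (adjusted p = 5.0e-15 and 5.6e-16, limma). No LPS library came near a vehicle library. For genes at 0 in some libraries the size of the log2 fold change depends on the added 0.1 FPKM: over the alternatives run, that of Il6 lay between 8.85 and 11.57 in wild-type cells.

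Lif (ENSMUSG00000034394, chromosome 11, 4257557 to 4272514), which encodes leukemia inhibitory factor, was at 7.92 and 9.64 FPKM in wild-type LPS and at 4.55, 4.86 and 26.3 FPKM in LPS labelled AMPKa1-/-. No other library had more than 7 fragments of Lif. Its log2 fold change with LPS was 5.82 ± 0.47 in wild-type cells and 6.05 ± 0.42 in those labelled AMPKa1-/-, or 5.23 without LPS replicate 3. Osm (ENSMUSG00000058755, chromosome 11, 4236420 to 4241026), which encodes oncostatin M, lies next to Lif, 16530 bases away. Its rise was the smallest of the 8: Osm was at 8.77 and 10.1 FPKM in wild-type LPS and at 11.9, 9.87 and 18.5 FPKM in LPS labelled AMPKa1-/-, against 2.73 to 4.39 FPKM in all vehicle libraries. The log2 fold change of Osm was 1.36 ± 0.22 in wild-type cells and 1.68 ± 0.20 in those labelled AMPKa1-/-, and LPS and vehicle libraries did not overlap.

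Among the IL-12 family subunits, Il12b (ENSMUSG00000004296, chromosome 11, 44400063 to 44414033), which encodes the p40 chain shared by IL-12 and IL-23, was at 484 and 1037 FPKM in wild-type LPS and at 305, 406 and 435 FPKM in LPS labelled AMPKa1-/-. Il12a (ENSMUSG00000027776, chromosome 3, 68690644 to 68698547), which encodes the p35 chain of IL-12, was at 354 and 287 FPKM in wild-type LPS and at 293, 271 and 481 FPKM in LPS labelled AMPKa1-/-. Both were among the most abundant of the 9 transcripts with LPS, and no vehicle library held more than 6 fragments of either. The log2 fold changes of Il12b were 12.23 ± 0.48 and 11.47 ± 0.43, and those of Il12a 11.25 ± 0.50 and 10.94 ± 0.45, in wild-type cells and in those labelled AMPKa1-/-.

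Il23a (ENSMUSG00000025383, chromosome 10, 128296139 to 128298752), which encodes the p19 chain that pairs with p40 to form IL-23, stayed far below its partner. It had 47 and 28 fragments in wild-type LPS (1.63 and 0.865 FPKM) and 28, 26 and 80 fragments in LPS labelled AMPKa1-/- (0.937, 1.13 and 2.96 FPKM). Vehicle libraries held 0, 0 and 1 fragment in wild-type cells and none in those labelled AMPKa1-/-. Against a floor of 3 fragments over the 3 vehicle libraries, Il23a labelled AMPKa1-/- was at least 47.7-fold higher with LPS, and at least 29.4-fold higher without LPS replicate 3. As Il23a entered the test only through its LPS libraries, no p-value is given for it.

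Il27 (ENSMUSG00000044701, chromosome 7, 126589010 to 126594941), which encodes the p28 chain of IL-27, was at 71.2 and 96.8 FPKM in wild-type LPS and at 63.0, 55.1 and 203 FPKM in LPS labelled AMPKa1-/-. All vehicle libraries lay between 1.28 and 2.04 FPKM. The mean level of Il27 was 44.8-fold higher with LPS in wild-type cells and 79.3-fold higher in those labelled AMPKa1-/-, with log2 fold changes of 5.40 ± 0.46 and 5.94 ± 0.41. Without LPS replicate 3 the fold labelled AMPKa1-/- was 43.8. The annotated Il27 overlaps its neighbour Apobr over 103 bases, and whether reads were counted by strand is not given in the sources used here, so a few reads at that end cannot be assigned. Ebi3 (ENSMUSG00000003206, chromosome 17, 55952640 to 55957022), its partner chain, had a level before LPS and rose less, to 92.8 and 125 FPKM in wild-type cells and to 100, 102 and 135 FPKM in those labelled AMPKa1-/-. The mean of Ebi3 was 4.25-fold higher in wild-type cells and 4.94-fold higher in those labelled AMPKa1-/-.

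The LPS library of replicate 3 labelled AMPKa1-/- was the highest of its group for each of the 8 genes that rose, and also for Tnf, at 780 FPKM against 336 and 247 FPKM in replicates 1 and 2. Without that library all 8 calls were kept, in LPS against vehicle and in DAMPs against LPS, but the changes of Il27, Lif and Il23a were smaller, as given beside them.

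Il10 (ENSMUSG00000016529, chromosome 1, 131019845 to 131024974) did not rise at 24 h. It was at 2.53, 6.81 and 3.90 FPKM in wild-type vehicle and at 2.26 and 1.51 FPKM in wild-type LPS, so that all LPS libraries lay below all vehicle libraries. In the libraries labelled AMPKa1-/- Il10 was at 2.83, 5.21 and 2.32 FPKM with vehicle and at 1.15, 2.89 and 1.497 FPKM with LPS, and the groups overlapped. Il10 changed by −1.100 ± 0.44 on the log2 scale in wild-type cells (adjusted p = 0.041, limma) and −0.89 ± 0.39 in those labelled AMPKa1-/- (adjusted p = 0.058). The call in wild-type cells was lost with the libraries centred on one median (−0.94, adjusted p = 0.065), under 3 other settings, and without LPS replicate 2 (−1.38, adjusted p = 0.054), LPS replicate 3 (−0.82, 0.27), vehicle replicate 2 (−0.74, 0.21) or vehicle replicate 3 (−1.13, 0.064). In the libraries labelled AMPKa1-/-, Il10 was called lower with the replicate number as a block (adjusted p = 0.012), without LPS replicate 2 (−1.25, 0.014) and without vehicle replicate 3 (−1.12, 0.034). No other of the 9 genes lost or gained a call with LPS under any alternative that kept it in the test.

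**Figure D2:**
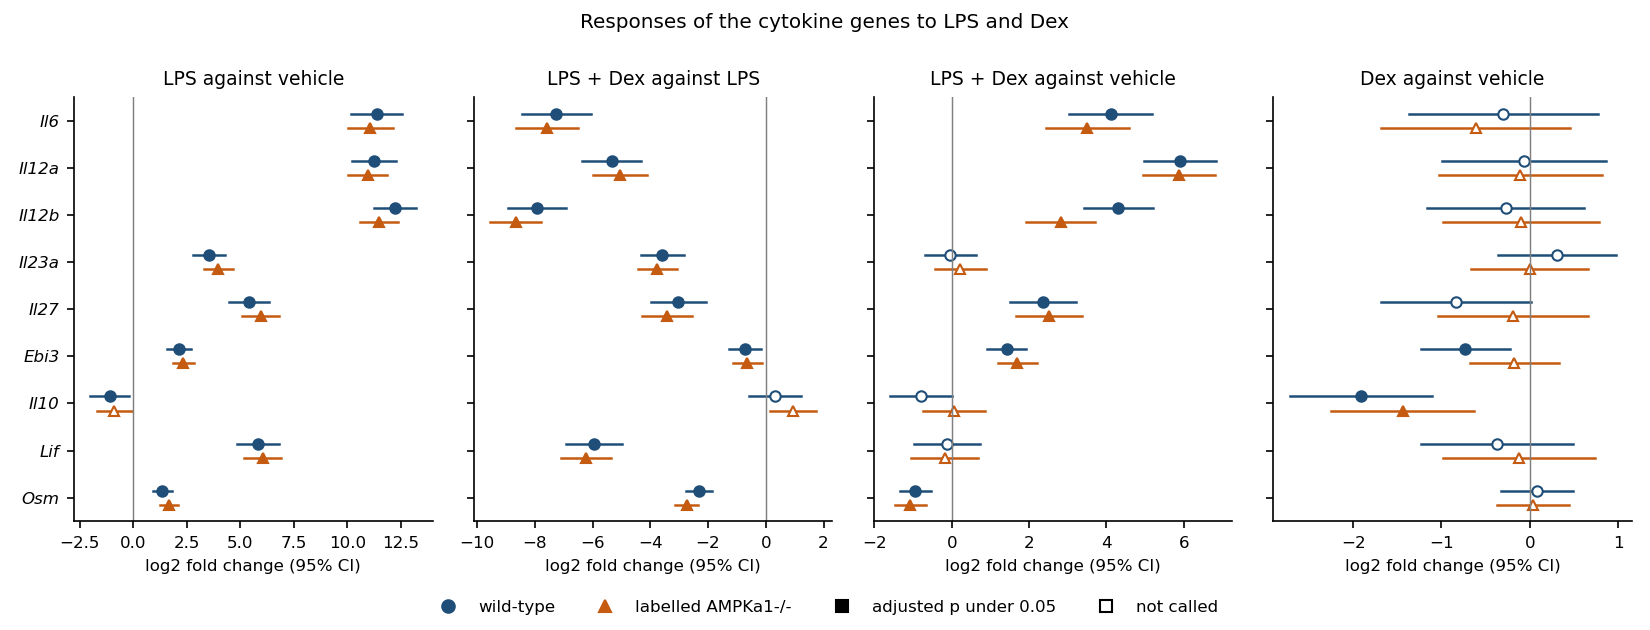
Log2 fold changes of the 9 genes with 95% confidence intervals (horizontal axes, different for each panel) for 4 comparisons. Circles are wild-type, triangles the libraries labelled AMPKa1-/-, and filled symbols were called. With LPS + Dex against LPS, 8 genes lie below 0 and Il10 does not, whereas with Dex against vehicle Il10 lies furthest below 0.

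Sequences just upstream of the start are shown for members that rose with LPS, since 5 of the 9 have an entry in the RefSeq promoter table (build GRCm38.p6): Il6, Il12a, Il12b, Ebi3 and Lif. Il10, Il23a, Il27 and Osm have none there. The 250 bases before the start were searched on both strands for the NF-kB consensus, AP-1 (TGANTCA), C/EBP (TTNNGNAA), an interferon-stimulated response element, a glucocorticoid response element and a TATA box (TATAAA). Capitals mark matches to any of these, and all 4 windows are on the plus strand (chr5:30012864-30013113 for Il6, chr11:4257318-4257567 for Lif, chr17:55952373-55952622 for Ebi3 and chr11:44399813-44400062 for Il12b).
Il6: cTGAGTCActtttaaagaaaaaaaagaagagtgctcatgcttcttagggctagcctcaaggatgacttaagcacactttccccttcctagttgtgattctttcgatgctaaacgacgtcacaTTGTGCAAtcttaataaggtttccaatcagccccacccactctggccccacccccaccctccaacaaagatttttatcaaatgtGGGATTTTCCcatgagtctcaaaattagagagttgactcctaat
Lif: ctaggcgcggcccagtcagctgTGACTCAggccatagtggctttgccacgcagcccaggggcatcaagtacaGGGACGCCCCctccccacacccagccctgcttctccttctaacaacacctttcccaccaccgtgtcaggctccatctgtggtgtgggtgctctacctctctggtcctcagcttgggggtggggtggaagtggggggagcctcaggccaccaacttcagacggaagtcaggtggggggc
Ebi3: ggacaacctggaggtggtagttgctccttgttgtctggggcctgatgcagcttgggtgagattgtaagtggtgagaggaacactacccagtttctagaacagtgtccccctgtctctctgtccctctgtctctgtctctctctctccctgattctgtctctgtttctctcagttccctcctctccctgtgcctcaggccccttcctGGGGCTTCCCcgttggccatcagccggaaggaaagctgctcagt
Il12b: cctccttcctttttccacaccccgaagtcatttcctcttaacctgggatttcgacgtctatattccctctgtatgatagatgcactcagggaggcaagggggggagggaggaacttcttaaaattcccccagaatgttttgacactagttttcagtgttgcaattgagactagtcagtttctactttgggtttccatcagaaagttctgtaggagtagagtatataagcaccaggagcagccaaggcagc

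In the Il6 window the NF-kB letters (GGGATTTTCC) stand at −44 to −35 from the start, C/EBP letters (TTGTGCAA) at −128 to −121 and AP-1 letters (TGAGTCA) at −249 to −243. Ebi3 has an NF-kB match (GGGGCTTCCC) at the same distance of −44 to −35. Lif has one (GGGACGCCCC) at −178 to −169 and AP-1 letters (TGACTCA) at −228 to −222. No match was found in the windows of Il12b and Il12a. Of 32851 promoters in the table, 7.25% hold the NF-kB consensus, 6.75% AP-1, 36.8% C/EBP, 2.98% the interferon element, 0.0304% the glucocorticoid element and 12.4% the TATA box. No member window held the last 3. These matches are descriptions of letters only.

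Dex alone lowered Il10 in both genotypes, and none of Il6, Il12a, Il12b, Il23a, Il27, Lif and Osm was called. Of these, Il6, Il12a, Il12b, Il23a and Lif were at the limit of detection with vehicle, where a fall with Dex could not be seen. Il10 was at 1.197, 1.11 and 0.767 FPKM in wild-type Dex and at 1.16, 1.26 and 1.01 FPKM in Dex labelled AMPKa1-/-, each below every vehicle library of its genotype. Its log2 fold change was −1.91 ± 0.39 in wild-type cells (adjusted p = 6.4e-04, limma) and −1.44 ± 0.39 in those labelled AMPKa1-/- (adjusted p = 8.4e-03). Without vehicle replicate 2 labelled AMPKa1-/-, the library with the highest Il10 of its group, the latter was −1.11 (adjusted p = 0.078). Il10 and Ebi3 were the 2 genes called in wild-type cells, where 23.5% of all genes were called, and Il10 the 1 gene called in those labelled AMPKa1-/-, where 22.1% were. Ebi3 was at 14.9, 15.0 and 14.1 FPKM in wild-type Dex, below the 3 vehicle libraries, with a log2 fold change of −0.73 ± 0.25 (adjusted p = 0.031). Labelled AMPKa1-/-, Ebi3 changed by −0.17 ± 0.25 (adjusted p = 0.67), and the difference between the genotypes in this response was 0.56 ± 0.35 (adjusted p = 0.37). The wild-type call of Ebi3 was lost without any one of the 3 Dex libraries (−0.70 to −0.75, adjusted p = 0.067 to 0.074), without vehicle replicate 1 (−0.75, 0.058) and without vehicle replicate 2 (−0.45, 0.25).

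With LPS + Dex against LPS, 8 of the 9 genes were called lower in each genotype, and the calls of Il23a and Lif among them carry no support. Of all genes, 15.1% were called lower in wild-type cells and 15.8% in those labelled AMPKa1-/-. In either direction, 28.8% and 32.2% were called. With Il23a and Lif left out, the middle one of the other 7 log2 fold changes was that of Il27, −3.03 in wild-type cells and −3.42 in those labelled AMPKa1-/-, against a median over all genes tested of −0.06 and 0.00. The genes differed in how much of the LPS level remained.

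Il12b had the most negative log2 fold change of the 9 genes, on a scale where genes that end at a few fragments are held by the added 0.1 FPKM. It was at 5.76, 2.83 and 1.35 FPKM in wild-type LPS + Dex and at 0.678, 1.34 and 0.626 FPKM in LPS + Dex labelled AMPKa1-/-, which is 0.436% and 0.231% of the mean LPS level. The wild-type share was 0.275% without LPS + Dex replicate 1 and 0.685% without LPS replicate 3. Its log2 fold change was −7.92 ± 0.48 in wild-type cells and −8.66 ± 0.43 in those labelled AMPKa1-/- (adjusted p = 7.3e-13 and 9.6e-15, limma). Il6 was at 3.59, 1.32 and 6.84 FPKM in wild-type LPS + Dex and at 1.49, 1.75 and 3.10 FPKM in those labelled AMPKa1-/-, so that 0.773% and 0.493% of the LPS level remained, the former 0.485% without LPS + Dex replicate 3. The log2 fold change of Il6 was −7.26 ± 0.58 (−6.64 without LPS + Dex replicate 2) and −7.57 ± 0.52. Neither gene overlapped between LPS and LPS + Dex.

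Il12a kept more than its partner chain. It was at 8.02, 3.66 and 15.8 FPKM in wild-type LPS + Dex and at 10.6, 9.26 and 10.3 FPKM in those labelled AMPKa1-/-, or 2.86% and 2.89% of the LPS level (the former 1.82% without LPS + Dex replicate 3), with log2 fold changes of −5.34 ± 0.50 and −5.05 ± 0.45. Il27 was at 9.07, 6.86 and 16.2 FPKM in wild-type LPS + Dex and at 7.54, 5.97 and 12.3 FPKM in those labelled AMPKa1-/-, or 12.8% and 8.04% of the LPS level, the latter 14.6% without LPS replicate 3. Its log2 fold changes were −3.03 ± 0.46 and −3.42 ± 0.41, the latter −2.83 without LPS replicate 3. Both remained above every vehicle library.

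Il23a and Lif went back to the limit of detection. Il23a had 1, 0 and 0 fragments in wild-type LPS + Dex and 2, 0 and 0 in LPS + Dex labelled AMPKa1-/-. Lif had 3, 0 and 7 fragments in wild-type LPS + Dex and 0, 1 and 1 in those labelled AMPKa1-/-, after 461 and 629 fragments and 274, 225 and 1432 fragments with LPS. Both were called lower in each genotype, and neither differed from vehicle by test, which at a few fragments says only that no difference was detectable at this depth.

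Osm fell below its untreated level. It was at 2.38, 1.82 and 1.40 FPKM in wild-type LPS + Dex and at 1.93, 1.75 and 1.85 FPKM in those labelled AMPKa1-/-, under all LPS libraries and under all vehicle libraries. Against LPS its log2 fold change was −2.30 ± 0.22 in wild-type cells and −2.75 ± 0.20 in those labelled AMPKa1-/-. Against vehicle it was −0.94 ± 0.20 (adjusted p = 2.7e-04) and −1.07 ± 0.20 (adjusted p = 4.8e-05, limma), where the median of all genes was −0.26 and −0.33. Dex alone did not move Osm (0.08 ± 0.20 and 0.04 ± 0.20). The wild-type call against vehicle was lost when only those groups were fitted (adjusted p = 0.054).

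Ebi3 fell least. It was at 61.7, 79.2 and 56.7 FPKM in wild-type LPS + Dex and at 65.6, 75.2 and 73.5 FPKM in those labelled AMPKa1-/-, or 60.6% and 63.6% of the LPS level. LPS and LPS + Dex libraries did not overlap, but the calls (−0.72 ± 0.27, adjusted p = 0.049, and −0.64 ± 0.25, adjusted p = 0.046) were lost under several settings, among them median centring (adjusted p = 0.11 and 0.072). In wild-type cells the call was lost without LPS replicate 2 or 3 (−0.93 and −0.51, adjusted p = 0.060 and 0.33) and without LPS + Dex replicate 1 or 3 (0.094 and 0.14). In those labelled AMPKa1-/- it was lost without any one of the 6 libraries (−0.50 to −0.72, adjusted p = 0.054 to 0.19).

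Il10 was not lowered by Dex in the presence of LPS. It was at 3.01, 3.65 and 1.099 FPKM in wild-type LPS + Dex and at 4.0005, 4.28 and 2.23 FPKM in LPS + Dex labelled AMPKa1-/-, within the range of the vehicle libraries except for the wild-type library at 1.099 FPKM and that labelled AMPKa1-/- at 2.23 FPKM. Against LPS its log2 fold change was 0.31 ± 0.44 in wild-type cells (adjusted p = 0.67) and 0.94 ± 0.39 in those labelled AMPKa1-/- (adjusted p = 0.070). The latter was called with the replicate number as a block (adjusted p = 0.014), with median centring (0.049), on leaving out LPS replicate 2 (1.2996, 0.019) or LPS + Dex replicate 3 (1.23, 0.032). By a comparison added after the values of Il10 had been seen, the Dex response of Il10 in the presence of LPS differed from that in its absence by 2.22 ± 0.59 on the log2 scale in wild-type cells and 2.38 ± 0.56 in those labelled AMPKa1-/- (adjusted p = 6.2e-03 and 2.0e-03, limma). The same difference was negative for Il6, Il12a, Il12b, Il23a, Il27, Lif and Osm and called in both genotypes, and was 0.01 ± 0.37 and −0.47 ± 0.35 for Ebi3, which was not called. Il6, Il12a, Il12b, Il23a and Lif were at the limit of detection without LPS, where a fall with Dex alone could not be seen. For these genes the difference therefore only restates the fall with LPS + Dex against LPS. For Il27 in wild-type cells it was −2.20 ± 0.62, and −1.98 without LPS replicate 3 (adjusted p = 0.052). In all, 8 genes were called in each genotype for this difference, where 25.6% and 23.5% of all genes were. Among them, the calls of Il6, Il12a, Il12b, Il23a and Lif are counted but carry no support.

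Against vehicle, 6 genes were called in each genotype with LPS + Dex, where 45.6% and 48.5% of all genes were called. Il12a (5.91 ± 0.45 and 5.88 ± 0.45), Il12b (4.30 ± 0.43 and 2.81 ± 0.43), Il6 (4.11 ± 0.52, or 4.72 without LPS + Dex replicate 2, and 3.51 ± 0.52), Il27 (2.36 ± 0.41 and 2.52 ± 0.41) and Ebi3 (1.42 ± 0.25 and 1.70 ± 0.25) stayed above vehicle, and Osm lay below it. Il10, with log2 fold changes of −0.79 ± 0.39 and 0.05 ± 0.39, was not called in either genotype, but was called lower in wild-type cells without vehicle replicate 1 (−1.13, adjusted p = 0.036, limma) and without LPS + Dex replicate 2 (−1.11, adjusted p = 0.037). In the LPS + Dex group the order of mean levels was Ebi3, Il27, Il12a, Il6, Il12b, Il10, Osm in wild-type cells. The ranges over libraries of Ebi3 and Il27 did not overlap, and those of all other neighbours in this order did. The order rests on the gene lengths the authors used: with the exon lengths of the annotation Il6 came after Il10.

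Ratios of paired subunits were taken in each library, with no pseudocount. FPKM ratios of Il12b to Il12a were 1.37 and 3.62 in the wild-type LPS libraries and 1.04, 1.499 and 0.905 in those labelled AMPKa1-/-. With LPS + Dex they were 0.719, 0.772 and 0.0857 in wild-type cells and 0.0639, 0.145 and 0.0607 in those labelled AMPKa1-/-, below 1 in all 6 libraries. With the exon lengths of the annotation in place of those the authors used, a choice made after seeing the data, the same ratios were 1.08, 1.16 and 0.129 in wild-type cells and 0.0958, 0.217 and 0.0910 in those labelled AMPKa1-/-, and that of LPS replicate 3 labelled AMPKa1-/- was 1.36, so which transcript exceeded the other in these 3 libraries depends on the lengths. Il12b exceeded Il23a 147-fold to 1199-fold in the LPS libraries (235-fold to 1918-fold with the exon lengths). For IL-27, the ratio of Ebi3 to Il27 was 9.85 to 20.9 in the 6 vehicle libraries, 1.30 and 1.29 in wild-type LPS and 1.59, 1.85 and 0.664 in LPS labelled AMPKa1-/-. With LPS + Dex it was 3.49 to 12.6. Ratios with a low denominator or numerator depend on a pseudocount: with 1 in place of 0.1 FPKM, the mean log2 ratio was −2.57 in place of −3.44 for Il12b to Il12a in LPS + Dex labelled AMPKa1-/-, 7.22 in place of 7.91 for Il12b to Il23a in LPS labelled AMPKa1-/-, and 3.29 in place of 3.93 for Ebi3 to Il27 in vehicle labelled AMPKa1-/-. These ratios compare transcripts, and no test was made of them.

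**Figure D3:**
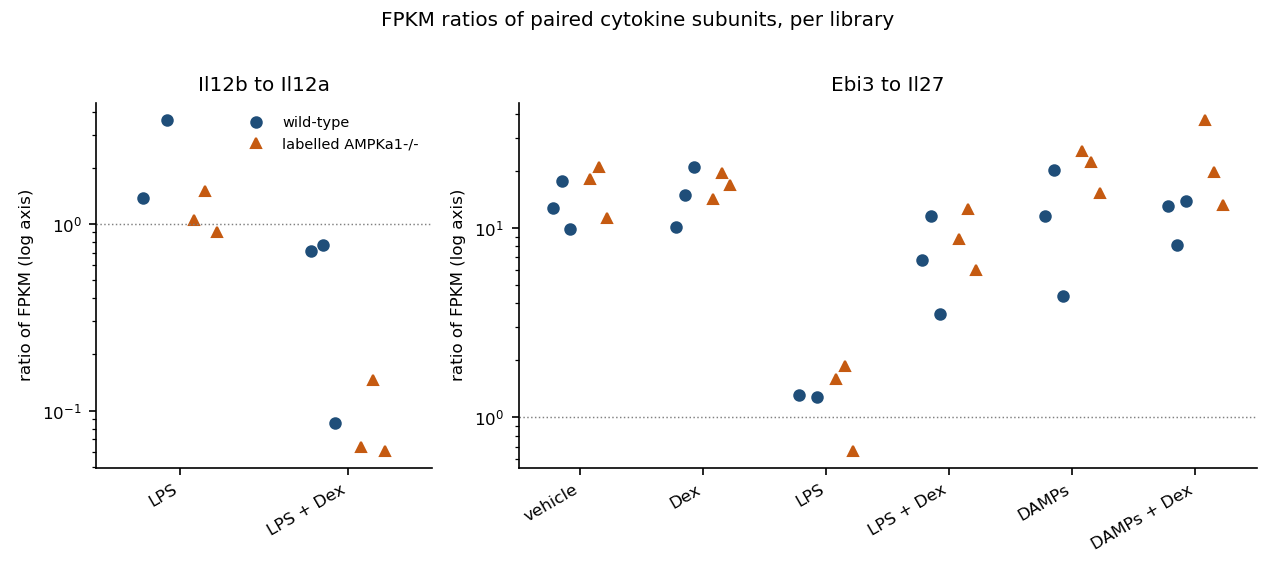
FPKM ratios of Il12b to Il12a (left) and Ebi3 to Il27 (right) in each library, on log axes, by treatment. Circles are wild-type and triangles the libraries labelled AMPKa1-/-, and the dotted line marks equal levels. The left ratio lies below 1 in every LPS + Dex library with the lengths the authors used, and the right ratio is lowest with LPS.

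DAMPs did not move the 9 genes detectably. With DAMPs against vehicle none was called in either genotype by limma, where 1.01% of all genes were called in wild-type cells and 2.68% in those labelled AMPKa1-/-. At an unadjusted p under 0.05 there were 0 and 1 of the 9, where 8.8% and 11.3% of all genes had such a p. That 1 was Ebi3 labelled AMPKa1-/-, at 35.8, 35.4 and 27.6 FPKM with DAMPs against 26.5, 26.9 and 14.8 FPKM with vehicle (0.58 ± 0.25, adjusted p = 0.32). Il6 had at most 5 fragments in any DAMPs library, Il12a at most 6, Il12b at most 2 and Lif at most 2, and Il23a had none in any of the 6. One wild-type DAMPs library, replicate 3, had Il27 at 5.82 FPKM, against 2.24 and 2.05 FPKM in the others.

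Dex on top of DAMPs lowered Il10, as Dex did alone. Il10 was at 5.86, 6.60 and 6.48 FPKM in wild-type DAMPs and at 1.72, 1.68 and 1.19 FPKM in wild-type DAMPs + Dex. Labelled AMPKa1-/-, it was at 3.81, 6.30 and 3.61 FPKM with DAMPs and at 1.13, 1.40 and 0.809 FPKM with DAMPs + Dex. The fall was −1.99 ± 0.39 and −1.93 ± 0.39 on the log2 scale (adjusted p = 4.2e-04 and 5.9e-04, limma), with no overlap in either genotype. In wild-type cells 2 genes were called and in those labelled AMPKa1-/- 1, where 19.2% and 19.5% of all genes were. The second was Ebi3 in wild-type cells (−0.74 ± 0.25, adjusted p = 0.032), a call lost without DAMPs replicate 2 (−0.52, adjusted p = 0.21) and without DAMPs + Dex replicate 2 (−0.62, 0.15) or 3 (−0.71, 0.085).

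Set against LPS, DAMPs left 8 genes lower and Il10 higher in both genotypes, so that all 9 were called where 45.6% and 52.4% of all genes were. These comparisons share the LPS libraries with those above. Il10 was 1.72 ± 0.44 higher on the log2 scale with DAMPs than with LPS in wild-type cells and 1.32 ± 0.39 higher in those labelled AMPKa1-/- (adjusted p = 2.0e-03 and 5.9e-03, limma). Il23a and Lif had no fragment in DAMPs labelled AMPKa1-/-, and against a floor of 3 fragments over the group they were at least 55.1-fold and 789-fold lower than with LPS, and 34.0-fold and 312-fold without LPS replicate 3.

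None of the 9 genes was called between the libraries labelled AMPKa1-/- and wild-type in any of the 6 treatments. All genes together gave 0.287% called with vehicle, 18% with Dex, 0.714% with LPS, 0.593% with LPS + Dex, 0.332% with DAMPs and 0.72% with DAMPs + Dex. The share with Dex rests on the fit and on single libraries: its 2829 genes were 152 when only the 2 groups were fitted, 271 without replicate 2 labelled AMPKa1-/- and 247 without wild-type replicate 2. Of the 54 gene and treatment pairs, 3 had an unadjusted p under 0.05 in limma, and all 3 are shown by values here: Il12b with LPS + Dex, Osm with LPS (0.45 ± 0.22, adjusted p = 0.42) and Il27 with DAMPs (−0.87 ± 0.41, adjusted p = 0.69). Of all genes, 6.25% with vehicle, 36% with Dex, 11.7% with LPS, 8.42% with LPS + Dex, 7.07% with DAMPs and 8.94% with DAMPs + Dex had such a p. Nor was any of the 9 called for a difference between genotypes in the response to LPS, to Dex, to Dex with LPS, to DAMPs or to Dex with DAMPs, and 0 of those 45 limma tests had an unadjusted p under 0.05. Of all genes, 0.0383%, 0.0255%, 0.0128%, 0% and 0% were called in these 5 tests, and 5.14%, 17.8%, 3.5%, 1.36% and 2.58% had an unadjusted p under 0.05.

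Il12b with LPS + Dex came nearest to a genotype call. The wild-type libraries, at 5.76, 2.83 and 1.35 FPKM, all lay above those labelled AMPKa1-/-, at 0.678, 1.34 and 0.626 FPKM, though the closest were 1.35 and 1.34 FPKM. The log2 difference was −1.64 ± 0.43 (adjusted p = 0.085, limma). It was called with a pseudocount of 1 FPKM (−1.08, adjusted p = 0.022, and 0.025 with a mean of at least 1 FPKM besides), without replicate 2 labelled AMPKa1-/- (−1.96, 0.0498) and without wild-type replicate 3 (−2.15, 0.016), and not under the other 10 of 14 alternatives, where the adjusted p reached 0.82 when only the 2 groups were fitted. A p that misses the threshold does not show that the genotypes are alike: the 95% confidence interval ran from −2.53 to −0.76.

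**Figure D4:**
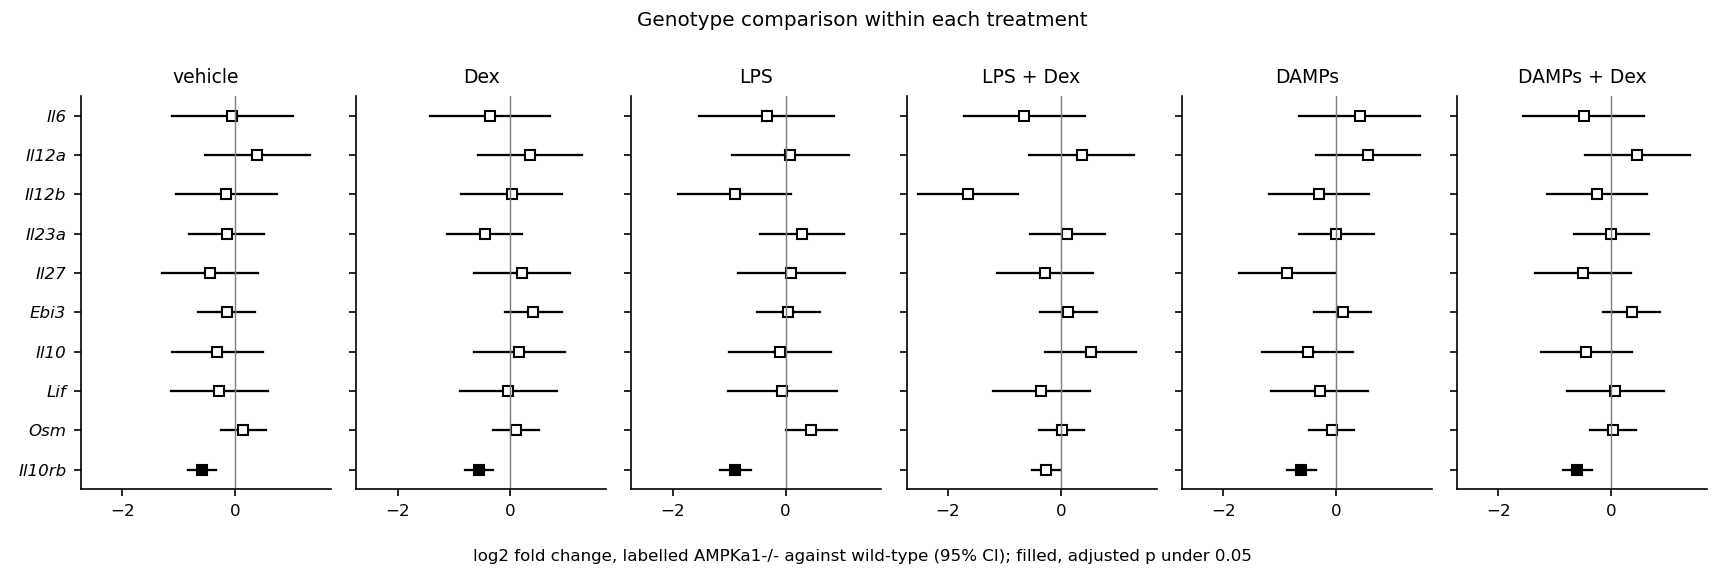
Log2 fold changes between the libraries labelled AMPKa1-/- and wild-type, with 95% confidence intervals, for the 9 cytokine genes and the IL-10 receptor gene Il10rb in each of 6 treatments. Squares are estimates and filled squares were called. No cytokine gene is filled, and Il10rb is filled in every treatment except LPS + Dex.

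Lifr, Il6ra and Il6st, 3 receptor genes of the IL-6 family, were lower with LPS than with vehicle and higher with LPS + Dex than with LPS, in both genotypes. The list held 10 receptor genes, of which 8 passed the filter. With LPS 5 of these 8 were lower and none higher in wild-type cells, and 6 were lower in those labelled AMPKa1-/-, where 29.6% and 37.8% of all genes were lower. With LPS + Dex against LPS 4 were higher and 2 lower in wild-type cells, and 4 higher and 1 lower in those labelled AMPKa1-/-, where 13.7% and 16.3% of all genes were higher and 15.1% and 15.8% lower. Lifr, the receptor chain for leukemia inhibitory factor, was at 4.74, 5.96 and 6.32 FPKM in wild-type vehicle and at 0.0594 and 0.0227 FPKM in wild-type LPS, while it was at 49.4, 74.6 and 55.2 FPKM in wild-type Dex and at 6.45, 7.02 and 2.47 FPKM in wild-type LPS + Dex. Its log2 fold changes were −5.36 ± 0.37 and −5.44 ± 0.33 for LPS against vehicle in the 2 genotypes, 3.36 ± 0.33 and 2.70 ± 0.33 for Dex against vehicle, and 5.14 ± 0.37 and 5.03 ± 0.33 for LPS + Dex against LPS. Lifr was lowest in the libraries in which Lif was highest.

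Il6ra, the IL-6 receptor chain, fell from 21.4, 18.9 and 22.7 FPKM in wild-type vehicle to 6.16 and 4.48 FPKM with LPS, and Il6st, which encodes gp130, from 73.9, 74.5 and 91.8 FPKM to 8.43 and 6.15 FPKM. With LPS + Dex Il6ra was at 22.6, 20.3 and 10.9 FPKM and Il6st at 28.2, 19.6 and 9.29 FPKM in wild-type cells. Against LPS these were log2 changes of 1.69 ± 0.24 for Il6ra and 1.25 ± 0.32 for Il6st in wild-type cells, and of 1.64 ± 0.21 and 1.36 ± 0.29 in those labelled AMPKa1-/-. Dex alone raised Il6ra (1.83 ± 0.21 and 1.18 ± 0.21) but not Il6st (−0.04 ± 0.29 and −0.95 ± 0.29, the latter called lower).

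For the IL-12 family, Il12rb2, a chain of the IL-12 receptor, fell with LPS by 3.22 and 2.93 on the log2 scale in the 2 genotypes, and changed by −0.51 ± 0.52 and −0.40 ± 0.46 when Dex was added. Il12rb1 was not called in these comparisons. Il27ra, a chain of the IL-27 receptor, was lower with Dex alone (−1.60 ± 0.45 and −1.63 ± 0.45) and higher with LPS + Dex than with LPS (2.05 ± 0.50 and 1.64 ± 0.45). Il23r and Osmr did not pass the filter. For IL-10, Il10ra was not called with LPS or Dex (0.21 ± 0.16 and −0.11 ± 0.14 with LPS), and Il10rb was lower with LPS (−0.80 ± 0.14 and −1.099 ± 0.12). These 2 were the receptor genes called lower with LPS + Dex than with LPS, Il10ra in both genotypes (−0.50 ± 0.16 and −0.37 ± 0.14) and Il10rb in wild-type cells (−0.59 ± 0.14, against 0.04 ± 0.12 labelled AMPKa1-/-).

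Il10rb, the second chain of the IL-10 receptor, differed between the genotypes and was singled out after its values were seen. With vehicle it was at 98.6, 126 and 113 FPKM in wild-type cells and at 74.9, 74.7 and 73.0 FPKM in those labelled AMPKa1-/-, and with LPS at 65.9 and 62.6 FPKM against 33.5, 31.9 and 38.8 FPKM. The libraries labelled AMPKa1-/- lay below all wild-type libraries in both treatments. The log2 difference was −0.59 ± 0.12 with vehicle (adjusted p = 0.021, limma), −0.56 ± 0.12 with Dex, −0.89 ± 0.14 with LPS, −0.61 ± 0.12 with DAMPs and −0.60 ± 0.12 with DAMPs + Dex, all called, and −0.26 ± 0.12 with LPS + Dex (adjusted p = 0.56). The call was lost under 7 of 14 alternatives with vehicle, 2 of 14 with Dex, 1 of 13 with LPS, 6 of 14 with DAMPs and 5 of 14 with DAMPs + Dex. The summed fibroblast markers also differed between the genotypes with Dex, DAMPs + Dex and LPS, as given with the markers, and their part in this was not tested.

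**Figure D5:**
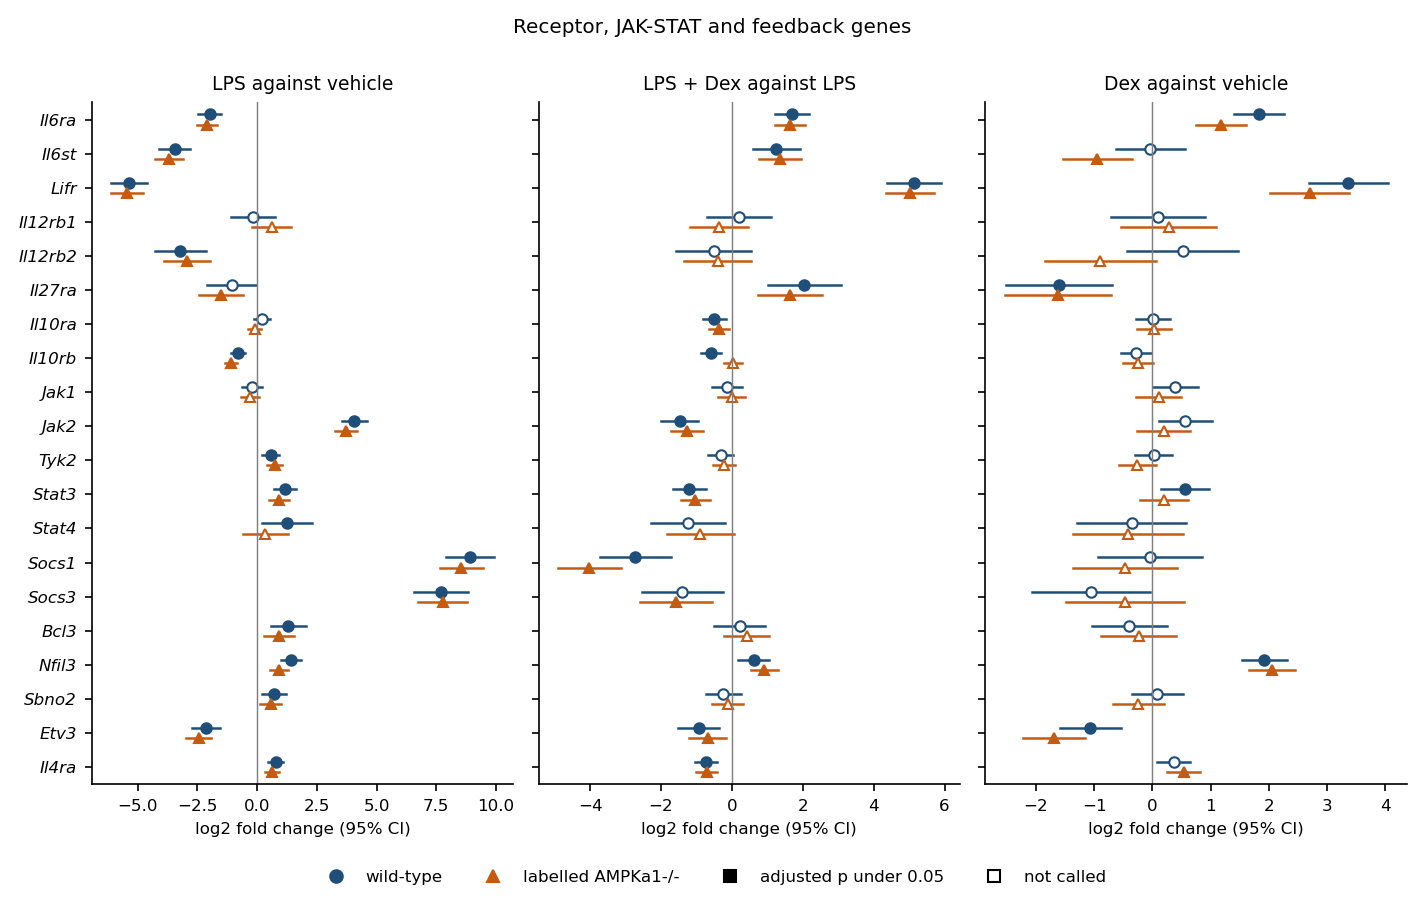
Log2 fold changes with 95% confidence intervals (horizontal axes, different for each panel) of receptor genes, JAK-STAT genes and STAT3 feedback or IL-10 target genes that passed the filter. Circles are wild-type, triangles the libraries labelled AMPKa1-/-, filled symbols were called. Lifr has the largest fall with LPS and the largest rise with LPS + Dex against LPS among these genes, and Socs1 and Socs3 the largest rises with LPS.

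The other ligands of these families were mostly silent. Of 9 listed, Ctf1 and Clcf1 passed the filter and only Clcf1, which encodes cardiotrophin-like cytokine factor 1, was called: it rose with LPS by 2.21 ± 0.56 and 2.10 ± 0.50 and changed by −2.05 ± 0.56 and −1.83 ± 0.50 with LPS + Dex against LPS. Il11, Cntf, Il19, Il20, Il22, Il24 and Il31 were below the filter.

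Of 5 JAK-STAT genes, 4 were higher and none lower with LPS in wild-type cells and 3 higher in those labelled AMPKa1-/-, where 17.6% and 17.5% of all genes were higher. Jak2 (4.08 ± 0.25 and 3.72 ± 0.22), Stat3 (1.16 ± 0.23 and 0.93 ± 0.20) and Tyk2 (0.56 ± 0.17 and 0.73 ± 0.16) were higher in both genotypes, and Stat4 in wild-type cells. The mean of Stat4 over all libraries, 0.102 FPKM, stood just above the filter, so its call is counted but carries no support. With LPS + Dex against LPS 2 were lower in each genotype, where 15.1% and 15.8% of all genes were: Jak2 (−1.48 ± 0.25 and −1.26 ± 0.22) and Stat3 (−1.21 ± 0.23 and −1.03 ± 0.20). Of the 7 STAT3 feedback and IL-10 target genes, 6 rose and 1 fell with LPS in each genotype, where 17.6% and 17.5% of all genes were higher and 29.6% and 37.8% lower. Socs3, the feedback inhibitor of gp130 signalling, went from 4.47, 3.04 and 7.54 FPKM in wild-type vehicle to 858 and 1157 FPKM with LPS, and was at 372, 384 and 374 FPKM with LPS + Dex (−1.40 ± 0.55 against LPS, adjusted p = 0.059, and −1.57 ± 0.50 labelled AMPKa1-/-, which was called). Socs1 rose by 8.92 ± 0.49 and 8.54 ± 0.43 with LPS and changed by −2.72 ± 0.49 and −4.02 ± 0.43 when Dex was added. With LPS + Dex against LPS, 1 of the 7 was higher and 3 lower in wild-type cells. In those labelled AMPKa1-/- 1 was higher and 4 lower. Of all genes, 13.7% and 16.3% were higher and 15.1% and 15.8% lower. Nfil3, a transcription factor gene induced by IL-10, was higher with Dex alone (1.92 ± 0.19 and 2.05 ± 0.19), and Etv3 was lower (−1.07 ± 0.26 and −1.69 ± 0.26).

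Of 9 genes for transcription factors known at Il6, Il12b or Il10, 3 were higher and 3 lower with LPS in wild-type cells, and 4 higher and 3 lower in those labelled AMPKa1-/-, where 17.6% and 17.5% of all genes were higher and 29.6% and 37.8% lower. The 3 lower ones were Atf3 (−0.79 ± 0.24 and −1.13 ± 0.22), Irf8 (−0.74 ± 0.18 and −0.81 ± 0.16) and Maf (−0.90 ± 0.29 and −1.54 ± 0.26). Nfkbiz, which encodes a nuclear IkB protein needed for Il6 and Il12b expression, rose by 2.64 ± 0.33 and 2.36 ± 0.29, Cebpb by 2.26 ± 0.24 and 1.70 ± 0.22, and Rel by 0.96 ± 0.28 and 0.72 ± 0.25. With LPS + Dex against LPS 6 were lower in wild-type cells, and 7 lower and 1 higher in those labelled AMPKa1-/-, where 15.1% and 15.8% of all genes were lower and 13.7% and 16.3% higher. Lower in both were Rel (−1.37 ± 0.28 and −1.21 ± 0.25), Irf1 (−1.46 ± 0.22 and −1.42 ± 0.20), Irf5 (−1.002 ± 0.15 and −0.78 ± 0.13), Irf8 (−0.77 ± 0.18 and −1.11 ± 0.16), Atf3 (−2.86 ± 0.24 and −2.76 ± 0.22) and Bhlhe40 (−2.92 ± 0.51 and −2.53 ± 0.46). Bhlhe40, known as a repressor of Il10, was also lower with Dex alone (−3.25 ± 0.46 and −3.45 ± 0.46). Maf, an activator of Il10, was higher with Dex alone in wild-type cells (1.02 ± 0.26) and not called in those labelled AMPKa1-/- (0.50 ± 0.26).

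Markers of other cells moved with some of these results, and their part in them was not tested. The 5 dendritic cell markers summed to 38.6 to 112 FPKM in the LPS libraries and to at most 1.58 FPKM elsewhere. Almost all of it was Ccr7, a chemokine receptor gene that activated macrophages can also express, at 37.5 and 110 FPKM in wild-type LPS, and the other 4 held little: Cd209a was at 0 in every library, and Flt3, Zbtb46 and Xcr1 reached at most 0.444, 0.686 and 1.56 FPKM. Xcr1 moved the same way as Ccr7, higher with LPS (2.15 ± 0.39 and 1.56 ± 0.35) and lower with LPS + Dex than with LPS (−2.25 ± 0.39 and −2.17 ± 0.35), so that 2 of the 3 markers tested were called in each of these comparisons. The 4 neutrophil markers summed to 301 to 1147 FPKM with LPS + Dex and to 1.09 to 33.1 FPKM elsewhere, nearly all of it S100a8, with Ly6g at 0 in 31 of 35 libraries and Mpo and Elane at most 0.218 and 0.475 FPKM. The 3 T cell markers summed to at most 34.95 FPKM, all but a trace of it Cd4, which was highest with DAMPs and below 1.25 FPKM in the LPS libraries. The 2 NK cell markers and the 3 mast cell and basophil markers summed to at most 0.329 and 0.878 FPKM. Cpa3, the mast cell marker tested, was lower with LPS (−2.56 ± 0.53 and −1.29 ± 0.48), with Dex in wild-type cells (−1.43 ± 0.48) and with DAMPs + Dex than with DAMPs (−1.47 ± 0.48 and −2.05 ± 0.48). It was also lower with LPS + Dex than with vehicle (−2.56 ± 0.48 and −1.29 ± 0.48), and was not called with Dex labelled AMPKa1-/- (0.14 ± 0.48). Cpa3 was at 0 in 14 of the 35 libraries. Cd4 was lower with LPS (−4.00 ± 0.42 and −3.66 ± 0.37), with LPS + Dex than with vehicle (−2.89 ± 0.37 and −3.37 ± 0.37) and with DAMPs + Dex than with DAMPs (−1.63 ± 0.37 and −1.53 ± 0.37), and was not called with Dex alone. Klrb1c, the NK cell marker tested, was lower with Dex in wild-type cells (−1.37 ± 0.42) and with LPS labelled AMPKa1-/- (−1.21 ± 0.42). With LPS + Dex against LPS, Klrb1c was higher labelled AMPKa1-/- (1.16) and not called in wild-type cells (0.56). Cd4 was higher there in wild-type cells (1.11) and not called in those labelled AMPKa1-/- (0.29). The 2 B cell markers summed to at most 0.821 FPKM, nearly all of it Cd79a. Cd79a was higher with LPS + Dex than with LPS in both genotypes (log2 fold changes 1.56 and 1.99). Against vehicle, Cd79a was higher with LPS + Dex labelled AMPKa1-/- (1.22) and not called in wild-type cells (0.95). The 4 fibroblast markers, of which Col1a2 was the most abundant, were lower in all libraries labelled AMPKa1-/- than in all wild-type libraries with Dex (2.52 to 3.98 against 10.8 to 21.9 FPKM), DAMPs + Dex (1.48 to 3.802 against 8.29 to 17.3 FPKM) and LPS (3.23 to 5.38 against 8.74 to 9.14 FPKM). They overlapped with vehicle (1.09 to 2.40 against 1.39 to 15.8 FPKM), DAMPs (1.58 to 2.86 against 1.28 to 7.39 FPKM) and LPS + Dex (1.41 to 5.87 against 2.61 to 8.58 FPKM). Pdgfra, a defining marker among them, reached at most 0.386 FPKM.

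By the correlation of mean log2(FPKM + 0.1) over the 12 groups, among 11354 genes with a mean of at least 1 FPKM, the pattern of Il6 was most like those of Ccr7 (Pearson r = 0.998), Il1a (0.997) and U90926 (0.996), and that of Il12b most like those of Il6 (0.996), Ccr7 (0.995) and Lad1 (0.995). Il12a was closest to Gstt4, Il20rb and Dnaja1, Il27 to Dtnb, Bcl2a1d and Npy, Ebi3 to Tnip1, Itgal and Psmd10, and Lif to Tmem215, Csf2 and Slc1a2, all with r between 0.992 and 0.999. Il10 had no gene so close: its nearest were Zc3h12d (0.951), Zfp286 (0.947) and Lair1 (0.934), and those of Osm were Plaur (0.959), Cd53 (0.943) and Tmem128 (0.943). The 12 means share the same libraries for all genes, so these values describe likeness and carry no test.

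The genes next to the 9 did not all move as they did. Beside Il23a lie Stat2, a gene of the interferon response (3289 bases), and Pan2 (4582 bases). Stat2 rose with LPS (2.57 ± 0.27 and 2.42 ± 0.24 in wild-type cells and in those labelled AMPKa1-/-) and was lower with LPS + Dex than with LPS (−2.62 ± 0.27 and −2.81 ± 0.24), while Pan2 was lower with LPS (−1.05 ± 0.23 and −1.35 ± 0.20). Apobr, which overlaps Il27, was lower with LPS (−0.79 ± 0.13 and −0.59 ± 0.11), where Il27 was higher. Castor1, on the other side of Osm from Lif, was lower with LPS (−1.54 ± 0.29 and −1.45 ± 0.26), and Mapkapk2, beside Il10, was higher (0.83 ± 0.15 and 1.01 ± 0.14), where Il10 was not.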

How the data were processed

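The 9 genes and the gene lists were chosen with earlier results of these data known. Deposited values were FPKM per Ensembl gene and library, made by the authors. The submitters' processing notes name Bowtie2 2.2.3, TopHat2 2.0.12, HTSeq 0.6.1, DESeq2 and the builds GRCm38 and mm10, while annotation and strand setting are not given there or in the paper. Symbols came from GENCODE M21. Library totals were estimated from the FPKM steps and the exon lengths of GENCODE M21. With these lengths, 55.1% to 63.4% of genes at a few fragments came out as whole fragments in a library. Whole fragments of each member were recovered from its FPKM steps and these totals for description, and no count test was run. Genes with a mean of at least 0.1 FPKM (15686) were tested in limma 3.58.1 (R 4.3.3, trended variance) on log2(FPKM + 0.1) with all 12 groups in one fit, two-sided, Benjamini-Hochberg adjusted at 0.05 within each of 27 comparisons, 2 of them added after the data were seen. This scale understates changes of low genes. The procedure was tested on simulated log values with independent libraries and no lower limit of detection. That test does not cover genes at a few fragments or libraries that deviate together.

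Named genes were the 9 members and the listed receptor, ligand, JAK-STAT, feedback and transcription factor genes, plus the 3 genes most like each member. Of the listed pathway and marker genes, 3 are not reported here and were left out of the counts and sums. Alternatives were a pseudocount of 1 FPKM, no filter, a mean of at least 1 FPKM, median centring, quantile normalization, a fit of only the groups compared, a block for replicate number, and omission of each library in turn. With 3 pairs of same-numbered samples, these deviated together (every pair's correlation over 0.1) in the libraries labelled AMPKa1-/- for LPS against vehicle, LPS + Dex against LPS, LPS + Dex against vehicle, Dex against vehicle and DAMPs against LPS, and not in the other comparisons made here. Those with wild-type LPS have 2 pairs, too few to decide. This pairing comes from the data, as no label gives it.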

Additional observations from a re-analysis of the deposited data

How the results depend on the processing

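Of 243 member comparisons 85 were called, 77 of them under every alternative run, and none reversed, while 233 values called in neither setting changed sign. The 85 include 16 calls from the comparisons added after the data were seen, and the calls said above to carry no support. As the comparisons share libraries, these totals describe only how calls depend on the processing. For the listed pathway genes, 312 of 975 comparisons were called, 229 of them under every alternative run, and none reversed. The count of members called with Dex against vehicle in wild-type cells was 1 in place of 2 without the filter and when only the groups compared were fitted, and 1 to 2 on leaving out a library. In the libraries labelled AMPKa1-/- it was 0 to 1 on leaving out a library. With DAMPs + Dex against DAMPs in wild-type cells it was 1 in place of 2 under the same 2 settings and 1 to 2 on leaving out a library. Between genotypes with LPS + Dex it was 1 in place of 0 with a pseudocount of 1 FPKM, alone or with a mean of at least 1 FPKM, and 0 to 1 on leaving out a library. The cause was not tested. Where replicate numbers paired the samples, the block changed the call of Il10 labelled AMPKa1-/- in LPS against vehicle (adjusted p = 0.012) and LPS + Dex against LPS (0.014) and no other member's. Where they did not, it changed Il10 in wild-type LPS + Dex against vehicle (−0.79, adjusted p = 0.028).

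Over all genes, fitting only the groups compared gave 1928 in place of 4515 calls for LPS + Dex against LPS and 1738 in place of 3009 for DAMPs + Dex against DAMPs in wild-type cells, 4 in place of 159 and of 421 for DAMPs against vehicle, and, between genotypes, 28 in place of 45 with vehicle, 152 in place of 2829 with Dex, 31 in place of 112 with LPS, 5 in place of 93 with LPS + Dex, 9 in place of 52 with DAMPs and 13 in place of 113 with DAMPs + Dex. Over the other settings the genotype counts reached 72 with vehicle, 270 with LPS and 92 with DAMPs, and interactions 59, 12, 46, 2 and 5 in place of 6, 4, 2, 0 and 0. Leaving out a library gave 247 to 2944 between genotypes with Dex, 23 to 171 with LPS, 29 to 55 with vehicle, 49 to 139 with LPS + Dex, 27 to 41 with DAMPs and 56 to 100 with DAMPs + Dex, and 16 to 314 and 169 to 355 for DAMPs against vehicle. With 2 or 3 libraries a group and 0 to 8 fragments of Il6, Il12a, Il12b, Il23a and Lif in libraries without LPS, small changes of these genes were not detectable.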
